A study of Ovis aries with 12 samples.

Results

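Cultured pulmonary artery endothelial cells of lambs were divided into a low and a high side by their level of the miRNAs from the imprinted DLK1-DIO3 region, which lies on 14q32 in human. The low side held 4 of the 12 libraries (PPHN 8, PPHN 10, control 2 and control 4), and the high side held the other 8 (PPHN 7, 9, 11 and 12, and control 1, 3, 5 and 6). The sides were chosen by the measured level of these miRNAs, so that level and its difference are described here without a test. The tests concern the 420 of 470 miRNA entries not counted as members, called outside the region below, with the surgery group as a covariate.

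The study compared miRNAs of cells from lambs with persistent pulmonary hypertension of the newborn (PPHN) with those of control lambs. In the PPHN group the ductus arteriosus, the fetal vessel that lets blood bypass the lung, was tied off before birth at about 125 days of gestation, for 5 to 7 days, and control lambs had a sham operation. In both groups the cells came from the main pulmonary artery, were purified with beads against CD31, an endothelial surface protein, and were grown in serum-containing medium to passages 2 to 5. Small RNA was sequenced in 6 PPHN and 6 control libraries, of which the low side held 2 and the high side 4 libraries of each surgery. Whether every library stands for a separate lamb is not stated in the labels, and the p-values below therefore reflect spread among libraries, some of it possibly technical.

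The DLK1-DIO3 region is imprinted: its protein-coding genes, such as DLK1 and RTL1, are expressed from the chromosome inherited from the father, and its noncoding RNAs, MEG3 and the miRNA clusters among them, from the one inherited from the mother. One group of miRNAs lies close to MEG3 or opposite RTL1, and a longer group, which begins with miR-379, follows downstream. Both groups are thought to come from long transcripts that start at or near MEG3, under the control of a methylated differential region. The miRNAs are known for high levels in the fetus, the placenta and the brain, and in stem cells their loss is a mark of altered imprinting.

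The 470 entries held 50 from the region, of 42 miRNA families. For 47 of them, the sheep gene table places the hairpin among the 55 that lie between DLK1 and DIO3. The other members are hsa-miR-656-3p, known from the human region, and rno-miR-409b and mmu-miR-3071-3p, which were added after their names and values were seen. The entry rno-miR-409b has nearly the counts of oar-miR-409-3p in every library, at a ratio of 0.924 to 0.953 on the low side and 0.876 to 0.939 on the high side, so reads may be shared between them. The same holds for 1 of the 420 entries left outside, rno-miR-3578, named after a rat miRNA. In every library its counts were within 5 of those of the member oar-miR-369-5p, and they were equal in 5 of 12 libraries. Its values therefore nearly repeat those of a member, whose level helped to divide the sides, and its p is not read as a result below. Whether the reads are the same was not tested. Of the 50 entries, 10 belong to the MEG3 and RTL1 group and 40 to the miR-379 group.

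Counts over all entries ranged from 2655849 to 11171643 on the low side and from 2250077 to 17740932 on the high side, and the means did not differ beyond their spread (exact two-sided permutation p = 0.569 over 225 assignments within surgery groups, smallest possible p 0.00444). The 10 most abundant entries took 70.5 ± 1.36% of counts on the low side (SD, n = 4) and 74.0 ± 3.55% on the high side (SD, n = 8; exact two-sided permutation p = 0.102). A count of 3 corresponded to between 0.169 and 1.33 CPM, counts scaled to a common total per library, which limits what can be said of weak entries in the shallow libraries. Levels are given in CPM throughout. The libraries PPHN 8, control 2 and PPHN 11 stand apart from the other 9 by a low level of miR-126, the miRNA that defines endothelial cells, and results without them are given with the cell type markers.

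The mean log2 CPM over the 50 entries was 0.13 in PPHN 8, 1.13 in control 2, 1.42 in control 4 and 2.05 in PPHN 10. Among the high libraries it was 2.83 in PPHN 12, and the other 7 ranged upward of 3.85 (control 1) to 5.45 (PPHN 11). The sides averaged 1.18 ± 0.80 (SD, n = 4) and 4.20 ± 0.76 (SD, n = 8), a difference of -3.02 on the log2 scale. The libraries formed a graded series rather than a sharp break at the dividing line: PPHN 10, the highest of the low side, and PPHN 12, the lowest of the high side, stood 0.77 apart, and PPHN 12 stood 1.03 below control 1. The same 4 libraries were lowest under all 4 scalings tried.

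**Figure D1:**
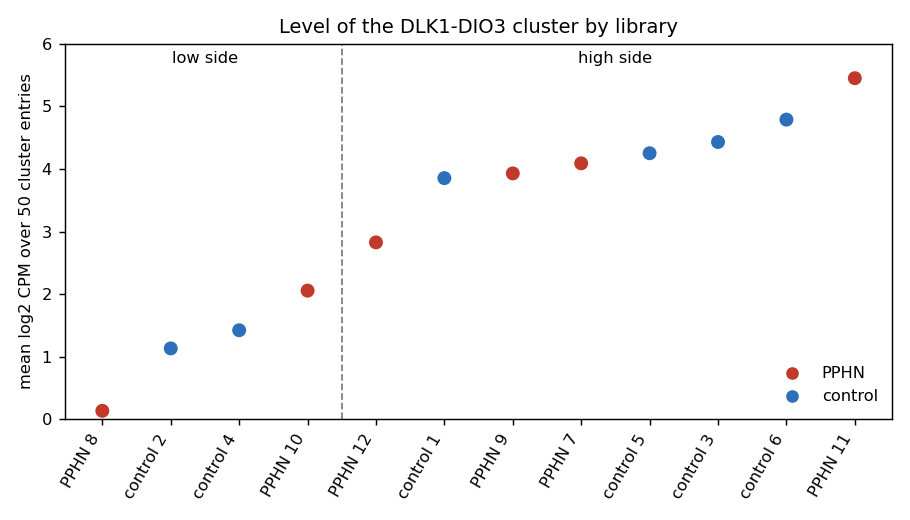
Mean log2 CPM of the 50 DLK1-DIO3 entries in each of the 12 libraries, in rising order, with PPHN libraries in red, control libraries in blue and the dividing line dashed. The 4 low libraries sit between 0.13 and 2.05, and the 8 high libraries between 2.83 and 5.45.

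Each side held libraries of both surgeries. The 6 PPHN libraries averaged 3.08 ± 1.85 and the 6 control libraries 3.31 ± 1.61 in mean log2 CPM (SD). The lowest library, PPHN 8, and the highest, PPHN 11, were both PPHN. With the side in the model, 0 of the 470 entries differed between PPHN and control (0% at an edgeR Benjamini-Hochberg adjusted p under 0.05, 58 entries or 12.3% at an unadjusted p under 0.05). Of the 50 cluster entries, 29 were higher and 21 lower in PPHN, with a median log2 fold change of 0.15, and 1 of them, oar-miR-494-3p, had an unadjusted p under 0.05 (log2 fold change -1.11, SE 0.39, edgeR adjusted p = 0.341). The side in this model was itself set by the levels of these 50 entries. Their p-values for surgery are therefore not independent of that choice and are given as a description.

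As a share of all counts, the cluster took 0.0337% in PPHN 8 (exact Clopper-Pearson 95% interval 0.0315 to 0.0360), 0.0657% in control 2, 0.102% in control 4 and 0.153% in PPHN 10. The high-side share was 0.324% in PPHN 12 and reached 1.80% in PPHN 11 (1.78 to 1.82). The span between the end libraries was 53.4-fold, while their totals, 2655849 in PPHN 8 and 2250077 in PPHN 11, were close. Both ends of the range are thus among the shallowest libraries, and the intervals cover counting error only.

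As a share of its own counts, the make-up of the cluster varied little across this range. The entry oar-miR-127, which is processed from the strand opposite RTL1, took 42.3 to 47.7% of the cluster's counts on the low side and 41.3 to 48.6% on the high side. The 10 entries of the MEG3 and RTL1 group together took 45.4 to 51.5% on the low side and 46.0 to 52.7% on the high side. Weighted equally, entry by entry, control 2 stood apart: the mean log2 CPM of the MEG3 and RTL1 group exceeded that of the miR-379 group by 0.040 there and by 0.97 to 1.48 in the other 11 libraries. That mean rests partly on values at the floor. In control 2, 12 of the 50 entries had under 3 counts, among them oar-miR-433-3p (0), oar-miR-136 (1), mmu-miR-3071-3p (1) and oar-miR-370-3p (2) of the MEG3 and RTL1 group. PPHN 8 had 35 such entries and a difference of 1.06. In log2 terms the median difference between the sides was -3.48 over these 10 entries and -3.24 over the 40 of the miR-379 group. The 12 entries named as 5p arms had a median of -3.36, and the 32 named as 3p arms a median of -3.24.

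All 50 entries were lower on the low side, by between -1.62 for oar-miR-369-3p and -3.94 for oar-miR-134-5p, with a median log2 fold change of -3.29. This direction follows from how the sides were chosen and is given as a description. The median was -3.17 within the PPHN libraries and -3.50 within the control libraries, and all 50 entries were lower in each. For 42 of the 50 entries, every low library lay below every high library, against 1 of 420 entries outside the region (0.238%), and that 1 was rno-miR-3578. Without it the count was 0 of 419.

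**Figure D2:**
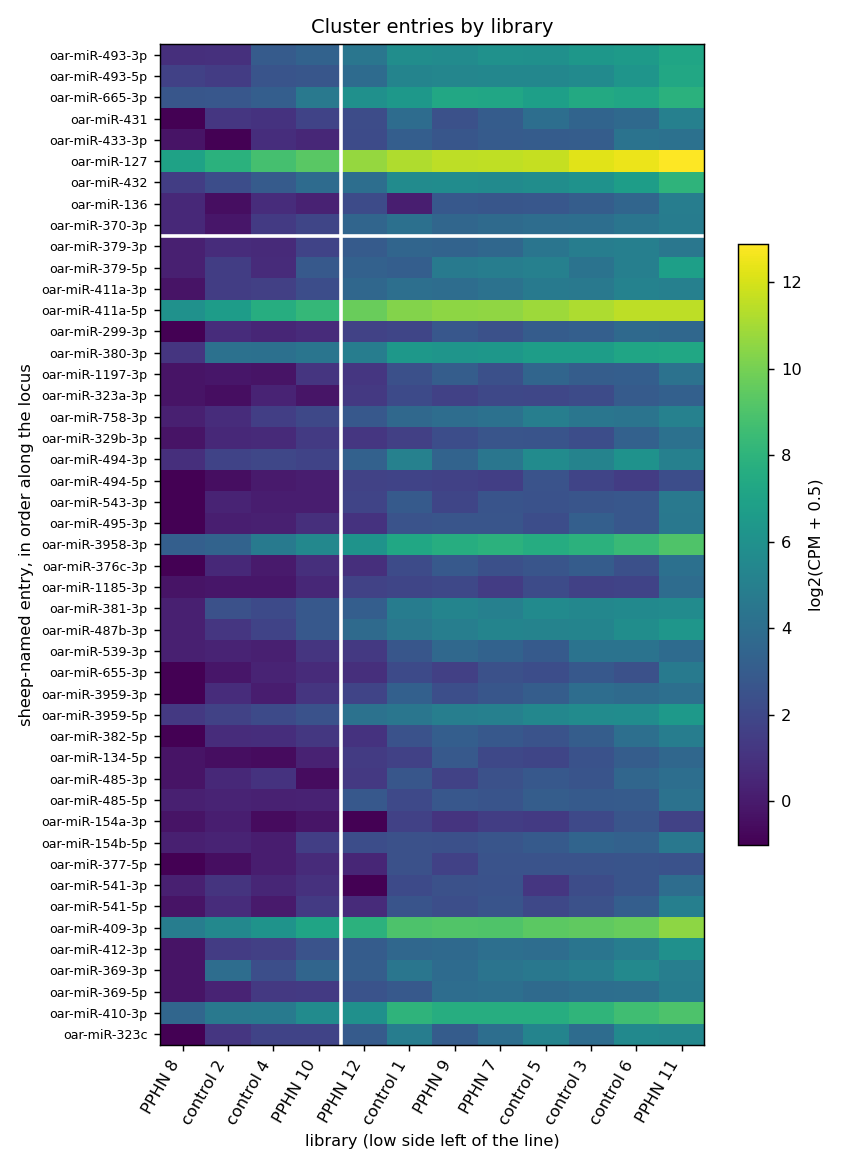
Level of the 47 cluster entries with a sheep name and a place in the region, as log2(CPM + 0.5), with entries in their order along the region from top to bottom and libraries from the lowest to the highest cluster level. The white vertical line divides the low side, on the left, from the high side, and the horizontal line divides the 9 entries of the MEG3 and RTL1 group, above, from the miR-379 group.

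For oar-miR-127 the low libraries had 128 CPM in PPHN 8, 229 in control 2, 440 in control 4 and 639 in PPHN 10. The 8 high libraries had between 1666 CPM (PPHN 12) and 7526 CPM (PPHN 11), with a median of 3111. The sides did not overlap, and the means were 359 ± 228 CPM and 3893 ± 1950 CPM (SD, n = 4 and 8). This is the most abundant entry of the cluster, and the counts behind it were at least 384 in every library.

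The next entry of the cluster by level was oar-miR-411a-5p, whose hairpin is the neighbour of miR-379, at 64.7, 103, 198 and 306 CPM in PPHN 8, control 2, control 4 and PPHN 10. Against this, the high side had 844 to 2912 CPM, with a median of 1697. The order of the low libraries was the same as for oar-miR-127, as it was for the 3 entries below.

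The entry oar-miR-409-3p had 28.7 CPM in PPHN 8, 44.3 in control 2, 69.8 in control 4 and 139 in PPHN 10. Its high-side values had a lowest of 245 CPM, a median of 610 and a highest of 1472 CPM, in PPHN 11. Near the end of the miR-379 group, oar-miR-410-3p averaged 28.2 ± 16.7 CPM on the low side and 262 ± 138 CPM on the high side, and in its middle oar-miR-3958-3p, a miRNA with a sheep entry of its own, averaged 22.1 ± 16.6 and 245 ± 140 CPM. None of these entries overlapped between the sides.

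In the MEG3 and RTL1 group, oar-miR-665-3p averaged 11.1 ± 8.37 CPM on the low side and 140 ± 52.3 CPM on the high side. PPHN 10 stood apart from the other low libraries, at 23.5 CPM against 6.00 to 8.32 CPM. The entries oar-miR-493-3p and oar-miR-493-5p, both arms of the hairpin nearest to DLK1, averaged 4.97 ± 4.27 and 4.10 ± 1.94 CPM on the low side, against 71.5 ± 36.3 and 57.6 ± 43.8 CPM on the high side.

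The miRNA that gives the longer group its name was itself weak. The entry oar-miR-379-5p had 0.667 CPM in PPHN 8, 1.13 in control 4, 2.41 in control 2 and 6.97 in PPHN 10, from 2 to 37 counts. All high libraries except PPHN 11, which had 114 CPM, were between 8.29 and 32.0 CPM. With the other arm, oar-miR-379-3p, the averages were 1.48 ± 1.04 CPM on the low side and 17.8 ± 8.98 CPM on the high side.

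For oar-miR-494-3p the low libraries had 1.33 CPM in PPHN 8 and 3.01 to 3.31 CPM in the other 3. The high libraries had 9.49 to 67.6 CPM, with a median of 33.7, and here control 6, not PPHN 11, was the highest. The 4 high control libraries had 34.2 to 67.6 CPM and the 4 high PPHN libraries 9.49 to 33.1 CPM, without overlap. This is a description, since the entry helped to choose the sides. The other arm, oar-miR-494-5p, averaged 0.313 ± 0.260 CPM on the low side, near the level of single counts, and 3.26 ± 1.05 CPM on the high side.

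The levels of the members went together from library to library. The log2 CPM of each entry, after removal of the surgery group means, had a Pearson correlation with the mean of the other 49 members of 0.70 to 1.00 over the 12 libraries, with a median of 0.97, and 46 of 50 exceeded 0.9. These points share libraries, depth and scaling, and the values are a description. The highest level was in PPHN 11 for 38 of 50 entries, and the lowest in PPHN 8 for 38 of 50.

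The 8 entries whose sides overlapped were oar-miR-369-3p, oar-miR-382-5p, oar-miR-136, oar-miR-541-5p, oar-miR-541-3p, oar-miR-329b-3p, oar-miR-377-5p and oar-miR-154a-3p. The smallest difference belonged to oar-miR-369-3p, at 7.71 ± 6.52 CPM on the low side and 23.9 ± 11.5 CPM on the high side. Control 2 and PPHN 10, at 14.9 and 11.1 CPM, reached the levels of PPHN 12 (7.94 CPM) and PPHN 9 (13.9 CPM). The opposite arm of the same hairpin, oar-miR-369-5p, did not overlap, at 1.29 ± 0.852 and 14.7 ± 7.00 CPM. The entry with the lowest correlation with the other members, oar-miR-541-3p, was not counted at all in PPHN 12, where 3 counts would be 0.622 CPM before scaling.

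Zero counts were concentrated in 1 library. In PPHN 8, 13 of the 50 entries were at 0, against 1 in control 2 and 0 in control 4 and PPHN 10. On the high side PPHN 12 had 2 entries at 0 and the other 7 libraries had 0. PPHN 8 had 895 counts over the whole cluster, so members that were undetected there were undetectable at that depth rather than shown to be absent.

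Outside the region, the comparison asked which other miRNAs separate the 2 kinds of culture. With edgeR's quasi-likelihood test, 0 of 420 entries reached an adjusted p under 0.05 by the Benjamini-Hochberg method (0%), and the lowest value, that of rno-miR-3578, was 0.0573. With rno-miR-3578 counted in the cluster, edgeR again called 0, of 419, and the lowest adjusted p was 0.123. Before adjustment 75 entries (17.9%) had a p under 0.05, 60 of them higher on the low side (14.3%) and 15 lower (3.57%), rno-miR-3578 among the lower ones. DESeq2 called 25 of the 415 entries to which it gave an adjusted p (6.02%), 16 higher (3.86%) and 9 lower (2.17%), with 95 at an unadjusted p under 0.05 (22.9%). One of its 9 lower calls was again rno-miR-3578. The third tool, limma-voom, called 0 (0%), with 82 before adjustment (19.5%).

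The balance between higher and lower entries depended on the scaling. With TMM factors from all entries, 270 of 420 log2 fold changes were above 0 (64.3%) and the median was 0.17. With TMM factors computed only from entries outside the region, the median was 0.03, and the entries at an unadjusted p under 0.05 were 34 higher and 23 lower. A log2 difference below about 0.2 outside the region therefore has no firm sign.

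**Figure D3:**
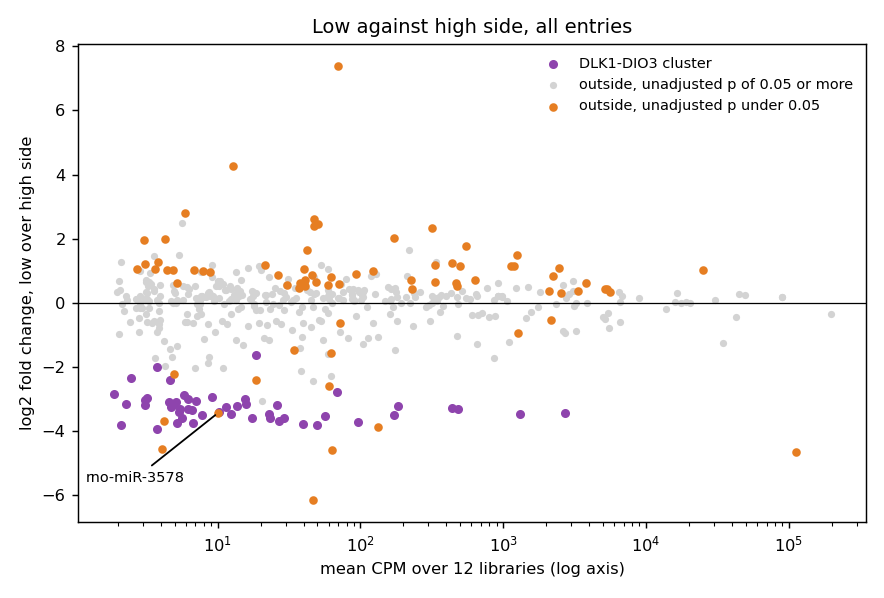
Log2 fold change of the low over the high side against the mean CPM over 12 libraries (log axis), for the 50 cluster entries in purple and the 420 others in orange where the unadjusted edgeR p was under 0.05 and in grey where it was not. The cluster entries lie between -1.62 and -3.94 over the whole range of levels, and rno-miR-3578, the near copy of a member, lies among them.

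For 6 entries outside the region (1.43%), all 4 low libraries lay above all 8 high ones. They were hsa-miR-628-3p, ssc-miR-339-3p, hsa-miR-421, mmu-miR-98-3p, mmu-miR-99b-3p and mml-miR-6529-3p, and their differences were smaller than those of the cluster. The lowest p among them belonged to hsa-miR-628-3p, at 8.33, 9.79, 14.5 and 15.1 CPM in PPHN 8, PPHN 10, control 4 and control 2. Its high-side range was 4.54 to 8.17 CPM, with a median of 5.52 (log2 fold change 0.98, SE 0.20, edgeR adjusted p = 0.0925). The other arm of its hairpin, hsa-miR-628-5p, averaged 37.7 CPM on the low side and 20.9 CPM on the high side (0.86, SE 0.26, edgeR adjusted p = 0.170). Outside these 6, rno-miR-3596c averaged 768 ± 305 CPM on the low side and 362 ± 159 CPM on the high side, with overlap (1.14, SE 0.25, edgeR adjusted p = 0.0925). DESeq2 called it.

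The entry mml-miR-6529-3p had 26.5 CPM in PPHN 10, 35.0 in control 4, 35.7 in PPHN 8 and 39.0 in control 2. Its high-side range was 8.35 to 23.8 CPM, with a median of 14.8 (log2 fold change 1.18, SE 0.26, edgeR adjusted p = 0.0925). Its more abundant partners bta-miR-6529b and bta-miR-6529, which are near duplicates of each other in every library, averaged 1811 ± 455 and 1902 ± 459 CPM on the low side against 802 ± 301 and 850 ± 321 CPM on the high side. They overlapped in PPHN 11 alone, at 1474 and 1569 CPM. Over the 12 libraries their log2 fold changes were 1.16 (SE 0.28) and 1.15 (SE 0.28), with an edgeR adjusted p of 0.120 for each. Without PPHN 11, edgeR called 12 entries outside the region (8 higher, 4 lower on the low side, rno-miR-3578 among the lower). Both bta-miR-6529b and bta-miR-6529 were among them (edgeR adjusted p = 0.00296). PPHN 11 is the library that overlapped, and with another library left out their edgeR adjusted p reached 0.358.

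**Figure D4:**
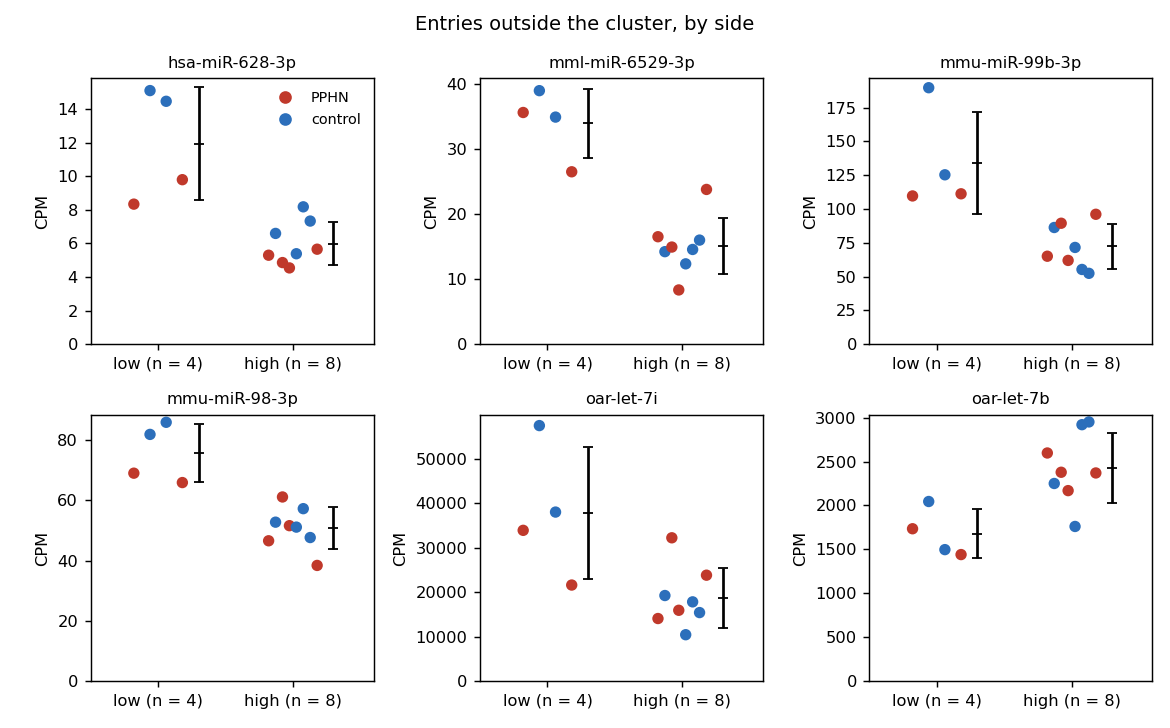
Levels in CPM of 6 entries outside the region, in the 4 low and the 8 high libraries of each panel, with PPHN in red, control in blue and black bars for mean ± SD. The entries hsa-miR-628-3p, mml-miR-6529-3p, mmu-miR-99b-3p and mmu-miR-98-3p are higher on the low side without overlap, oar-let-7i averages higher and oar-let-7b lower there, and both overlap.

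The miR-99, miR-100 and miR-125 families, which in vertebrates share clusters with let-7 genes, had 8 of 9 entries higher on the low side, beside 64.3% of all 420. Of all 9, 6 were higher at an unadjusted p under 0.05, beside 14.3% of the 420. The 9 are not separate. The entries rno-miR-125b-2-3p and hsa-miR-125b-2-3p are named for the same arm, and oar-miR-125b and bfl-miR-125b for the same miRNA. Both arms of the miR-99b and miR-125a hairpins are also listed. The median log2 fold change was 0.51, beside 0.17 over all 420. The entry mmu-miR-99b-3p had 110 CPM in PPHN 8, 111 in PPHN 10, 125 in control 4 and 190 in control 2, against 52.4 to 96.1 CPM on the high side (log2 fold change 0.89, SE 0.25, edgeR adjusted p = 0.170). The passenger arm rno-miR-125b-2-3p averaged 937 ± 315 CPM on the low side and 361 ± 309 CPM on the high side (1.78, SE 0.52, edgeR adjusted p = 0.170), and PPHN 9 overlapped at 1043 CPM. The main arm oar-miR-125b was level, at 3855 and 3840 CPM. None of the 9 passed the adjusted threshold with edgeR over the 12 libraries. DESeq2 called mmu-miR-99b-3p and rno-miR-125b-2-3p (adjusted p = 0.0173 for each), and edgeR called rno-miR-125b-2-3p in control libraries only. With adjustment over all 470 entries edgeR called both. That adjustment takes in the low p-values of the cluster, which chose the sides, so these calls are not read as support.

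The let-7 family, known as a brake on growth and as a mark of differentiated cells, was mixed. Of 12 entries, 8 were higher and 4 lower on the low side, 5 and 1 of them at an unadjusted p under 0.05. Over all 420 entries, 64.3% were higher, with 14.3% higher and 3.57% lower at an unadjusted p under 0.05. The entry oar-let-7i had 21591 CPM in PPHN 10, 33910 in PPHN 8, 38024 in control 4 and 57500 in control 2, against 10404 to 32231 CPM on the high side (log2 fold change 1.03, SE 0.31, edgeR adjusted p = 0.170). In the other direction, oar-let-7b averaged 1679 ± 275 CPM on the low side and 2426 ± 396 CPM on the high side (-0.53, SE 0.17, edgeR adjusted p = 0.178).

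All 4 entries of miR-221 and miR-222, a pair known in endothelial cells for lowering the stem cell factor receptor KIT, were higher on the low side. Of the 4, 3 had an unadjusted p under 0.05, beside 14.3% of all 420 entries higher at that p. The 4 are not separate, since hsa-miR-222-5p and rno-miR-222-5p are named for the same arm. Both were highest in control 2 among the low libraries. Without control 2 the log2 fold change of hsa-miR-222-5p fell from 1.66 to 0.28, and that of cgr-miR-222-3p was 0.83. The entry cgr-miR-222-3p averaged 3806 ± 1315 CPM on the low side and 1808 ± 844 CPM on the high side (log2 fold change 1.08, SE 0.37, edgeR adjusted p = 0.191). For miR-210, the miRNA best known for its induction by hypoxia, bta-miR-210 had 209 CPM in PPHN 8, 119 in control 4, 82.9 in control 2 and 13.9 in PPHN 10. The high libraries had 3.49 to 66.6 CPM, so that PPHN 10 lay within their range (2.46, SE 0.85, edgeR adjusted p = 0.191). The 10 entries of the hypoxia list as a whole were divided, with 6 higher and 4 lower and a median log2 fold change of 0.0028.

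Other families leaned one way, with 0 entries past the adjusted threshold in edgeR over the 12 libraries. Over all 420 entries, 64.3% were higher on the low side and 35.7% lower. All 9 entries of the miR-188 to miR-660 cluster of the X chromosome were higher, with a median of 0.62 in log2. None of the 9 had an unadjusted p under 0.05. Within PPHN libraries their log2 fold changes had no common direction, from -0.40 (oar-miR-362) to 0.35 (mmu-miR-188-3p). Within control libraries they ran from 0.71 (mmu-miR-188-3p) to 1.79 (bta-miR-502b). All 7 of the miR-130, miR-301 and miR-454 family were higher too, with a median of 0.31, and 1 of the 7 had an unadjusted p under 0.05. All 9 entries of a family that restrains the cell cycle, that of miR-15 and miR-16 with miR-424, and all 5 of the miR-23, miR-27 and miR-24 clusters were lower, with medians of -0.61 and -0.45. At an unadjusted p under 0.05 these were 0 of 9 and 1 of 5, beside 3.57% of all 420 lower at that p. The miR-17-92 cluster and its paralogs, known for promoting proliferation, had 18 of 20 entries higher and a median of 0.11, which is below the median of 0.17 over all 420 entries. Of the 20, 2 were higher at an unadjusted p under 0.05, beside 14.3% of all 420. Of these families, DESeq2 called pma-miR-92a (log2 fold change 1.01, adjusted p = 0.0441), and edgeR called bta-miR-502b of the X chromosome cluster without PPHN 11.

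Neighbouring miRNAs and those of other imprinted regions were compared as well. Other miRNAs of the long arm of human chromosome 14 that are not among the members, miR-342, miR-203 and miR-1247, of which miR-1247 lies next to DIO3, had 3 of 4 entries higher and 1 lower on the low side, with 0 at an unadjusted p under 0.05. The entry bta-miR-342 averaged 482 CPM on the low side and 486 CPM on the high side. The neighbour of DIO3, bta-miR-1247-5p, averaged 13.0 ± 15.8 and 1.93 ± 2.66 CPM, with overlap (log2 fold change 2.48, SE 1.56, edgeR adjusted p = 0.421). Its low libraries ran from 0.188 to 35.8 CPM. Of miRNAs from imprinted genes elsewhere, both miR-296 entries, from the GNAS region, were higher on the low side, and both miR-335 entries, from the MEST gene, were lower. The entry ssc-miR-296-5p averaged 46.0 ± 7.92 CPM on the low side and 33.2 ± 2.74 CPM on the high side (log2 fold change 0.46, SE 0.20, edgeR adjusted p = 0.242), and rno-miR-335 averaged 44.0 CPM on the low side and 86.2 CPM on the high side (-0.91, SE 0.51, edgeR adjusted p = 0.378).

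By likeness to the cluster mean (Pearson correlation over the 12 libraries after removal of the surgery means), apart from rno-miR-3578 (0.98), which nearly repeats a member's counts, the leading entries were mmu-miR-185-5p (0.69), smo-miR1109 (0.68), hsa-miR-7-1-3p (0.66) and bta-miR-378c (0.65). In the opposite direction the strongest were mmu-miR-98-3p (-0.87), bta-miR-769 (-0.86), bta-miR-2284h-5p (-0.84), hsa-miR-219a-1-3p (-0.80) and ssc-miR-296-5p (-0.80). The entry mmu-miR-98-3p, the passenger arm of a let-7 relative, had 65.9 to 85.9 CPM on the low side and 38.4 to 61.1 CPM on the high side. These correlations were ranked over all 420 entries and share the same libraries and scaling, and they are given as a description.

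Smooth muscle miRNAs were low in all 4 low libraries. The smooth muscle miRNA oar-miR-143 had 2154 CPM in PPHN 8, 2253 in control 2, 4304 in control 4 and 18345 in PPHN 10. On the high side it had 104220 to 301102 CPM in 6 libraries, whereas PPHN 11 had 2385 CPM and control 5 had 7459 CPM (log2 fold change -4.66, SE 1.38, edgeR adjusted p = 0.170). Its cluster partner ssc-miR-145-5p averaged 3.32 ± 2.17 CPM on the low side and 92.7 ± 85.8 CPM on the high side. All 7 entries of the smooth muscle list were lower on the low side, beside 35.7% of all 420 entries. Of the 7, 5 had an unadjusted p under 0.05, beside 3.57% of the 420 lower at that p. DESeq2 called oar-miR-143, ssc-miR-145-5p, mml-miR-145-3p and mmu-miR-145a-3p. Without PPHN 11, a high library poor in miR-143, edgeR called oar-miR-143 and ssc-miR-145-5p. In such bulk libraries, fewer cells of a type and less RNA per cell cannot be told apart.

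The endothelial miRNA miR-126 did not follow the sides. Its 6 entries summed to 175 CPM in control 2, 203 in PPHN 8, 10941 in control 4 and 64330 in PPHN 10. The high-side sums were 187 CPM in PPHN 11 and, elsewhere, 25588 to 101612 CPM, so the labelled cell type lacked most of its defining miRNA in 3 libraries, 2 low and 1 high. The 8 fibroblast entries (miR-199 and miR-214) summed to 1576 to 5115 CPM on the low side and 134 to 19416 CPM on the high side. One weak entry among them, hsa-miR-199b-5p, had 0.377 to 1.33 CPM on the low side and 0 to 307 CPM on the high side. DESeq2 called it, and edgeR did not (log2 fold change -6.16, SE 2.12, edgeR adjusted p = 0.191). The 2 blood cell entries summed to 15.3 to 203 CPM and 27.9 to 899 CPM, and of 6 epithelial markers only oar-miR-200b was among the entries, at 4.83 to 397 CPM and 0 to 150 CPM.

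**Figure D5:**
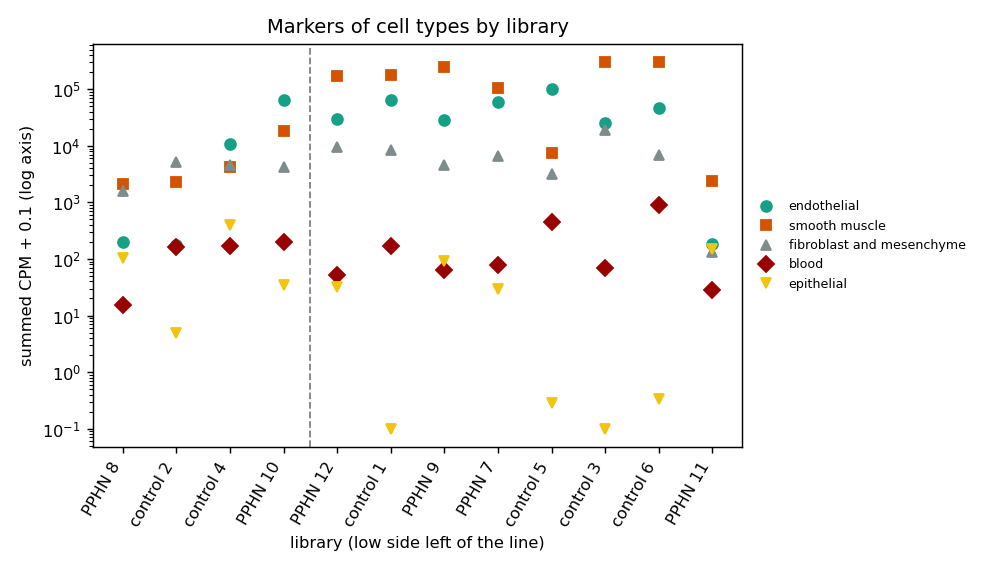
Summed CPM of cell type markers in each library (log axis, 0.1 added), with libraries in rising order of the cluster level and the dividing line dashed. Smooth muscle miRNAs reach at most 18353 CPM in the 4 low libraries and in control 5 and PPHN 11 of the high side, and endothelial miR-126 reaches at most 203 CPM in PPHN 8, control 2 and PPHN 11.

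The cluster and miR-143 came apart in the 2 high libraries that were poor in miR-143. PPHN 11 had the highest cluster level of all libraries, 5.45 in mean log2 CPM, and control 5 had 4.25, both above all 4 low libraries. Among the 6 libraries poor in miR-143 (4 low, 2 high), edgeR called 0 of 417 entries, with 7 at an unadjusted p under 0.05. Without the 3 libraries poor in miR-126 there were 0 called of 420 and 33 at an unadjusted p under 0.05. Both subsets hold fewer than 12 libraries. Their counts are therefore not directly comparable with those over all 12 and do not show that differences are absent. The part of cell make-up in the other differences between the sides was not tested.

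Whether the difference between the sides was itself different in PPHN and control cells was tested as an interaction. With edgeR 0 of 420 entries passed (0%), 16 had an unadjusted p under 0.05 (3.81%), DESeq2 called 2 and limma-voom 0. The lowest p belonged to oar-miR-200b, which stood at 34.1 and 105 CPM in the low PPHN libraries against 29.5 to 150 CPM in the high PPHN libraries, and 4.83 and 397 CPM in the low control libraries against 0 to 0.229 CPM in the high control libraries (edgeR interaction, adjusted p = 0.417). DESeq2 called it (adjusted p = 3.39e-05), and so did edgeR without control 2 (adjusted p = 0.0236), where control 4 is the only low control library and is assumed to vary like the others. The other DESeq2 call was bta-miR-1468, with a positive interaction of 6.72 on the log2 scale (adjusted p = 0.0154).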

How the data were processed

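Unnormalized read counts of miRNA entries in 12 libraries were deposited by the authors, per the file headers. The submitters' processing notes name Trim Galore 0.2.5 and Bowtie 1.1.1, without their roles. The genome build and the miRNA reference used are not given in the sources at hand. The table lists 470 entries with at least 143 counts each in total, and 149 entries join several names, so near-identical entries may count the same reads. Depth here means the sum over the listed entries, not all sequenced reads. Other columns, with the authors' own test results, were not used here.

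The members, lists and sides were chosen with earlier results of these data known. An entry was placed in the cluster by family name, and the ARS-UI_Ramb_v3.0 gene table served only to find which hairpins lie between DLK1 and DIO3. Counts were fitted with edgeR 4.0.16 in R 4.3.3 (robust quasi-likelihood test, TMM scaling, filterByExpr, which kept all 470 entries), with surgery and side as terms. P-values were adjusted by the Benjamini-Hochberg method over the 420 entries outside the cluster, with a threshold of 0.05, and cluster entries have no p for the sides. For surgery, adjustment was over all 470 entries. The common biological coefficient of variation was 0.633. CPM values are TMM-scaled, with a prior count of 2 on the log2 scale. Standard errors come from the fold change and its F statistic. Totals and shares were compared by exact permutation of sides within surgery groups. Between pairs of libraries, chi-square over its degrees of freedom was at least 381, far above sampling noise, so all 12 were counted as separate libraries. The scripts were tested on simulated data.

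Entries were selected for naming by rule: the 5 with the lowest p in each direction with a mean of at least 10 CPM on 1 side, the 5 most abundant, up to 2 per list, the marker miRNAs, and the 5 most like the cluster mean in each direction. In the cluster these are miR-127, miR-379, miR-409, miR-494 and the 8 most abundant entries. Not all entries that the rules select are described above, and others were named after their values were seen. Alternatives were RLE and upper-quartile scaling, TMM from entries outside the cluster, DESeq2 1.42.0, limma-voom (limma 3.58.1), other filters, covariates and adjustments, subsets of libraries, and each library left out in turn.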

Additional observations from a re-analysis of the deposited data

Results flagged for a closer look

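Over 152 groups of 4 or 8 libraries, 26 held a library that stood apart from the others of its side by Dixon's criterion, and chance gives this for about 1 in 20 groups. PPHN 11 of the high side was above its side for oar-miR-379-5p (114 CPM, others 8.29 to 32.0), oar-miR-409-3p (1472 CPM, others 245 to 791) and rno-miR-409b (1354 CPM, others 230 to 693). It was also above its side for bta-miR-6529b (1474 CPM, others 435 to 844), bta-miR-6529 (1569 CPM, others 463 to 884), hsa-miR-222-5p (60.6 CPM, others 11.6 to 26.6) and oar-miR-10b (588 CPM, others 3.12 to 185).

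PPHN 10 was above the rest of the low side for oar-miR-665-3p (23.5 CPM, others 6.00 to 8.32) and for the vessel cell miRNAs. These were oar-miR-143 (18345 CPM, others 2154 to 4304), mml-miR-145-3p (0.941 CPM, others 0 to 0.0807), mmu-miR-145a-3p (1.51 CPM, others 0 to 0.201), mmu-miR-126b-3p (61801 CPM, others 164 to 10574), mmu-miR-126a-5p (1226 CPM, others 4.67 to 181), ccr-miR-126-3p (1266 CPM, others 3.42 to 182) and ipu-miR-126a (14.9 CPM, others 0 to 1.13).

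PPHN 8 was below the rest of the low side for oar-miR-494-3p (1.33 CPM, others 3.01 to 3.31), hsa-miR-214-5p (4.33 CPM, others 27.9 to 30.2), cgr-miR-214-3p (6.67 CPM, others 60.4 to 62.4), hsa-miR-214-3p (8.33 CPM, others 80.1 to 88.9) and the share of the 10 most abundant entries (68.4%, others 70.9 to 71.3%). It was above for oar-miR-10b (936 CPM, others 4.12 to 20.3).

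On the high side, PPHN 9 was above for rno-miR-125b-2-3p (1043 CPM, others 109 to 545), control 5 for bta-miR-2285z (136 CPM, others 51.7 to 91.7) and smo-miR1109 (11.1 CPM, others 4.49 to 7.20), control 3 for bta-miR-3604 (10198 CPM, others 77.5 to 4871) and control 1 for hsa-miR-219a-1-3p (15.3 CPM, others 3.21 to 8.22).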

How the results depend on the processing

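Against 0 entries outside the cluster called by edgeR, there were 25 with DESeq2, 13 with adjustment over all 470 entries (whose low p-values include the cluster's own), 9 in control libraries only, and 1 with each of the filter of 10 CPM in 4 libraries, no surgery covariate and the cluster level as a continuous covariate. That 1 was rno-miR-3578, the near copy of oar-miR-369-5p, so these add no call independent of the cluster, and it is also 1 of the 25 and 1 of the 13. Against 75 at an unadjusted p under 0.05, there were 33 without the 3 libraries poor in miR-126 and 7 in the 6 libraries poor in miR-143. In PPHN libraries only there were 10 of 418, and in control libraries only 87 of 419. These subsets hold fewer libraries, so their counts are not directly comparable with the 75. Some alternatives were chosen after seeing the data. Of these, moving PPHN 12 to the low side gave 49 at an unadjusted p under 0.05. Counting rno-miR-409b and mmu-miR-3071-3p outside the cluster gave 2 called (rno-miR-409b and rno-miR-3578). Since rno-miR-409b has nearly the counts of the member oar-miR-409-3p, neither of these calls is independent of the cluster. Counting rno-miR-3578 in the cluster gave 0 called and 74 at an unadjusted p under 0.05. Leaving out 1 library gave 0 to 12 called (12 without PPHN 11, and rno-miR-3578 alone without PPHN 12) and 41 (without control 2) to 103 (without PPHN 10) at an unadjusted p under 0.05, with 49 without control 4. The interaction had 2 calls with DESeq2 and 0 to 1 with a library left out, and the surgery test had 0 throughout. The cluster difference was -3.29 to -2.68 in mean log2 CPM with a library left out, that of total counts -3668460 to -424320, and that of the share of the 10 most abundant entries -4.51 to -2.90 percentage points. For totals and shares no other alternative was run.

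Of 61 named entries outside the cluster, 47 kept their direction under every alternative run. The direction reversed for ola-miR-214 (log2 fold change -0.48; 0.22 with limma-voom, 0.046 with the continuous level, 2.55 in libraries poor in miR-143, 0.86 with PPHN 12 moved) and oar-miR-10b (0.89 without the surgery covariate, 0.052 with the continuous level, 0.58 in libraries poor in miR-143, 1.22 in PPHN only). With a library left out, oar-miR-10b ranged from -2.86 to 0.66 and ola-miR-214 from -0.72 to 0.080. In libraries poor in miR-143 it also reversed for ssc-miR-145-5p (0.53), oar-miR-199a-3p (1.84), bta-miR-3604 (1.84), ipu-miR-214 (0.29), hsa-miR-214-5p (1.68), cgr-miR-214-3p (1.82), hsa-miR-214-3p (1.78), rno-miR-335 (0.54) and hsa-miR-335-3p (0.97). In PPHN libraries only it reversed for oar-miR-200b (-0.12), ccr-miR-126-3p (0.11) and mmu-miR-126b-3p (0.12), and with PPHN 12 moved for hsa-miR-214-5p (0.082), cgr-miR-214-3p (0.13) and hsa-miR-214-3p (0.15). The cause was not tested. No paired analysis was possible because PPHN and control libraries share no replicate numbers. Depth limits weak entries most in PPHN 8 and PPHN 11.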
